A study of Mus musculus with 16 samples.

Results

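The 9 genes described here encode the neuregulin and epidermal growth factor (EGF) signalling system of the heart: the ligands Nrg1, Nrg2, Nrg4 and Hbegf, the receptors Erbb2, Erbb3, Erbb4 and Egfr, and the feedback inhibitor Errfi1. They were found by matching the Ensembl identifiers of the count table to these symbols, which gave 9 of its 37991 genes. Polyadenylated RNA was sequenced from left and right ventricles of 8 embryos of C57BL/6 background. Hypoplastic left heart syndrome (HLHS, in which the left ventricle stays small) was present in 3 of them, 1 from each of the embryonic days E13.5, E14.5 and E17.5. The 5 littermate controls comprised 1 embryo of the earliest stage and 2 of each later one. The groups are therefore HLHS left ventricle (3 libraries), HLHS right ventricle (3), control left ventricle (5) and control right ventricle (5). Litter and stage were 1 variable. The study is known for a mouse line with mutations in Sap130 and Pcdha9, but the labels give only the phenotype and no genotype of any embryo, control embryos included.

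Neuregulin 1 is made by the endocardium, the inner lining of the heart, and acts on ERBB4 and ERBB2 on the neighbouring heart muscle cells. ERBB2 binds no known ligand and works as a partner of the other receptors, while ERBB3 binds neuregulin but has little kinase activity and is known for its part in the endocardial cushions and the neural crest lineage. Mouse embryos without Nrg1, Erbb2 or Erbb4 fail to form trabeculae, the muscle ridges of the ventricle, and die before birth. EGFR and its ligand HB-EGF restrain the growth of valve mesenchyme. ERRFI1 binds activated EGFR and ERBB2 and blocks their kinase.

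Library totals ran from 17081273 to 28648645 counts. No 2 libraries of a group agreed within sampling noise (lowest chi-square per degree of freedom 7.51 over 26 pairs). The libraries held heart muscle markers at a summed 26787 to 44743 CPM (counts scaled to an equal, normalised library size) over 12 genes. Trace counts of liver and lung genes (5 genes) reached 13.2 CPM in 1 control left ventricle and at most 3.70 CPM in the control right ventricles. In bulk tissue, fewer cells of a type and less RNA per cell cannot be told apart.

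Erbb2 had the highest level of the 9 genes per kilobase of exon. Its RPKM (CPM divided by exon length in kilobases) ran from 19.3 to 51.4 over the 16 libraries, with a median of 30.9. Errfi1 was next, with a median of 5.37 RPKM and a lowest value of 4.07, and its highest value stayed below the lowest of Erbb2. Hbegf (median 4.40 RPKM), Erbb4 (3.65) and Erbb3 (3.26) formed a middle group whose ranges overlapped one another and that of Errfi1. Their lowest and highest values were 3.61 and 5.94 for Hbegf, 2.66 and 5.62 for Erbb4, and 2.61 and 4.56 for Erbb3. Egfr lay below them, at 0.285 to 1.04 RPKM. The neuregulin genes were lowest, with medians of 0.319 for Nrg4, 0.169 for Nrg2 and 0.166 for Nrg1, and with ranges that overlapped among the 3 and with that of Egfr. In counts, Nrg1 had 19 to 132 reads per library, Nrg4 29 to 71 and Nrg2 6 to 24, against 2564 to 6300 for Erbb2. All 9 passed the filter on low counts in all 6 comparisons. Exon lengths come from GENCODE M21 on GRCm38, since the sources used here do not give the annotation behind the counts. These levels are approximate for genes with many isoforms such as Nrg1.

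**Figure D1:**
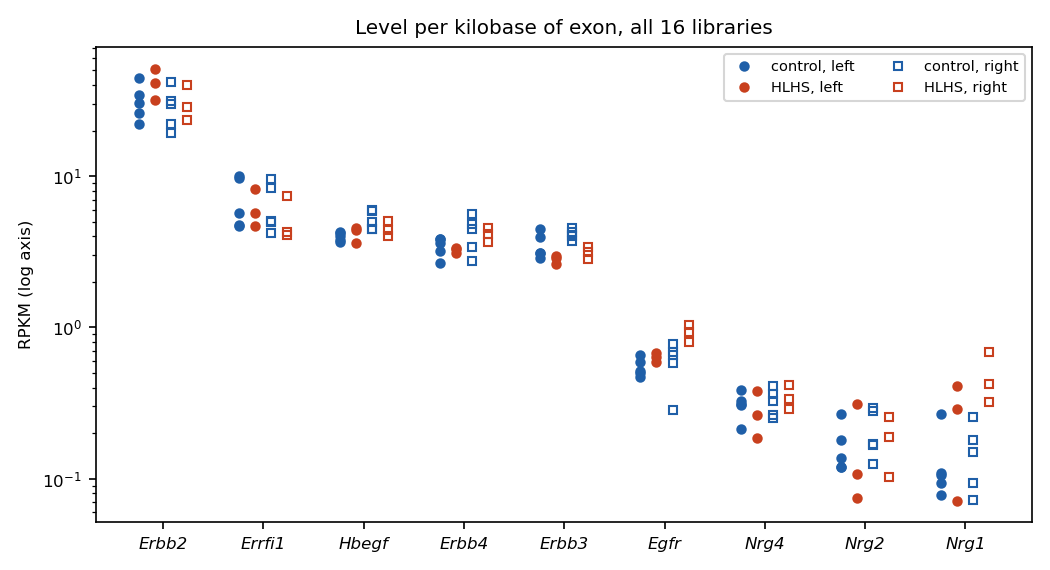
RPKM of each gene (log axis) in all 16 libraries, by phenotype (colour) and side (filled circles left, open squares right); each point is 1 library. Erbb2 stands above every other gene, and the 3 neuregulin genes and Egfr lie lowest.

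On GRCm38, Nrg1 (ENSMUSG00000062991) lies on the minus strand of chromosome 8 (31814551 to 32884029), and 4.66% of its exon length overlaps a non-coding gene on the other strand, Gm26578. Erbb2 (ENSMUSG00000062312) lies on the plus strand of chromosome 11 (98412470 to 98437716) and shares only 9 bases of exon with Mien1, on the other strand. Of Nrg4, 6.06% of the exon length overlaps Fbxo22. Erbb3 (chromosome 10, 128567523 to 128589652), Erbb4 (chromosome 1, 68032186 to 69108059), Egfr (chromosome 11, 16752203 to 16918158) and Errfi1 (chromosome 4, 150853919 to 150868892) overlap no other annotated exon. The sources used here do not give whether the counting used strand, and reads in these short overlaps cannot be assigned.

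The promoters of the 3 members whose level differed between stages in controls are printed here, because Erbb2 and Erbb4 moved together there and Errfi1 moved the other way. They are the 250 bases before an annotated start, from RefSeq on GRCm38.p6, where 5 of the 9 members matched. Capitals mark 4 motifs searched on both strands: the GC box GGGCGG, the CCAAT box, the cyclic AMP response element TGACGTCA and the TATA box TATAAA.
Erbb2, plus strand, chr11:98412234-98412483: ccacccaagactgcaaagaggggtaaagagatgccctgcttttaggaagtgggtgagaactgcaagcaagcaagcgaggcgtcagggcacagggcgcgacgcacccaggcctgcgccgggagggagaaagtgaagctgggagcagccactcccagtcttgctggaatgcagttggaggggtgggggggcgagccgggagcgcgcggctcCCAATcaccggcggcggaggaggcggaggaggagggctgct
Erbb4, minus strand, chr1:69108060-69108309: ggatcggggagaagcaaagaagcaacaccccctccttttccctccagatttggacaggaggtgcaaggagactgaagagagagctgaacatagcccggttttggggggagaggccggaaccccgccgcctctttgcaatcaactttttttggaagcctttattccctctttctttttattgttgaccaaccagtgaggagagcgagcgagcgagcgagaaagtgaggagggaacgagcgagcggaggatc
Errfi1, plus strand, chr4:150854820-150855069: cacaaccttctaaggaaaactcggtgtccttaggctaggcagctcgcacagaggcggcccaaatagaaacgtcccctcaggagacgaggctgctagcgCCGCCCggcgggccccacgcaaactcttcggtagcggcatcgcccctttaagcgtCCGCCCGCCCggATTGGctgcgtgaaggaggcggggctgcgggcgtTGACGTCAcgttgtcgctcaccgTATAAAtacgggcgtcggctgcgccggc
The window of Errfi1 is that of the second of its annotated starts and holds all 4 motifs. It has 3 GC boxes, of which the pair nearest the start overlap, and 1 each of the CCAAT box, the cyclic AMP response element and the TATA box. Erbb2 has a CCAAT box alone, and none of the 4 was found in the window of Erbb4 or in that of the other Errfi1 start. Of 32851 promoter windows of this length, 32.7% held a GC box, 33.8% a CCAAT box, 1.55% the cyclic AMP response element and 12.4% a TATA box. These matches describe the letters only, and the counts do not show which start was used.

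**Figure D2:**
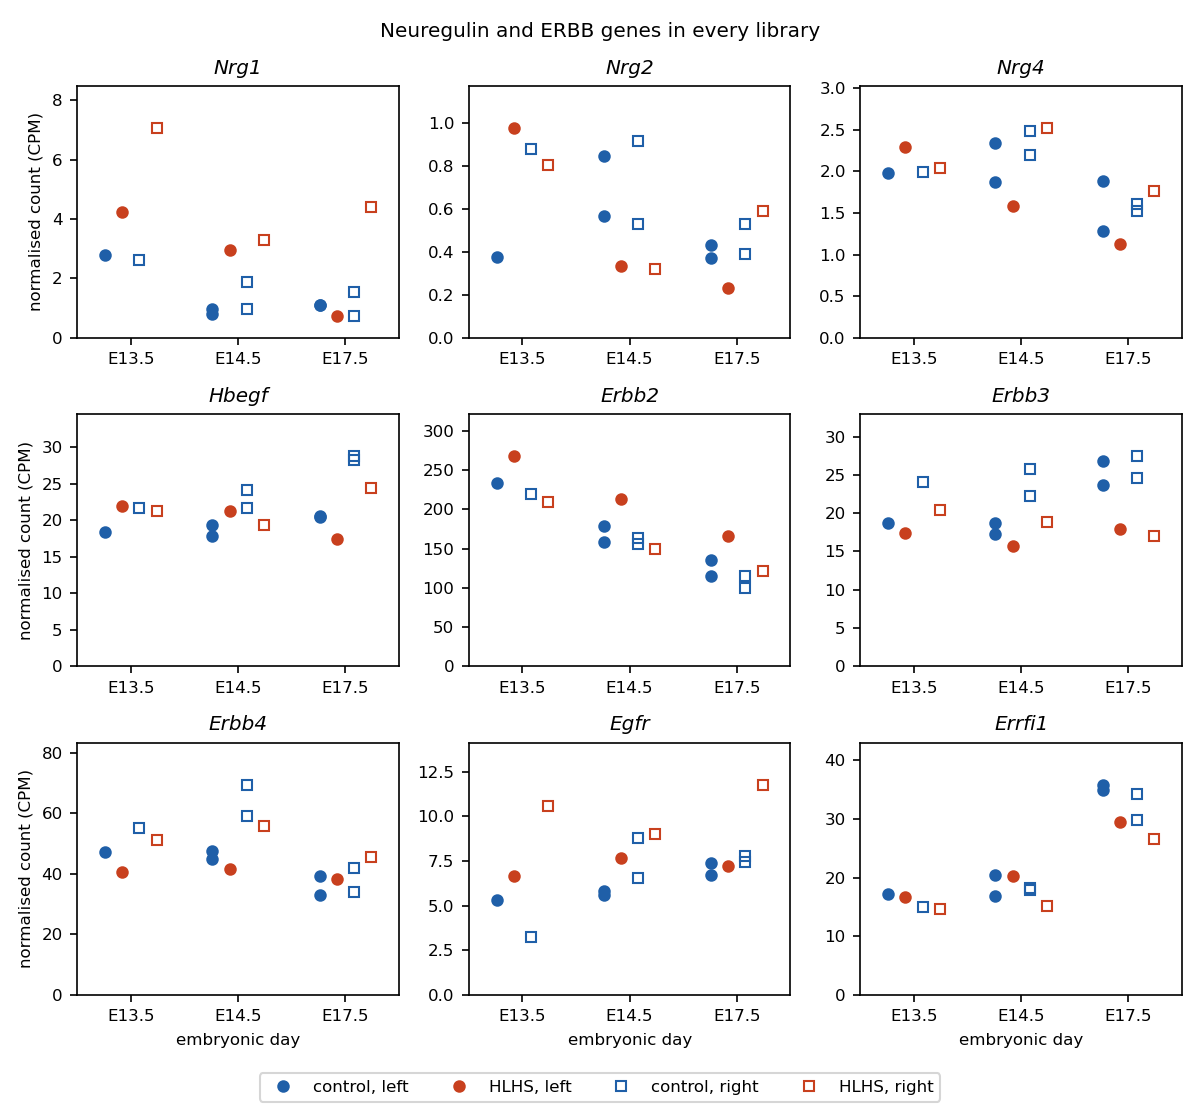
Normalised count (CPM, linear axis from 0) of each gene in every library by embryonic day; colour gives the phenotype, filled circles the left and open squares the right ventricle, and each point is 1 library. Nrg1 is highest in the HLHS right ventricles, Erbb2 is lower at E17.5 than at E13.5 in every group, and Errfi1 is highest at E17.5.

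The comparison of HLHS with littermate controls asks which of these genes differ in the small left ventricle and in the right ventricle. In the right ventricle Nrg1 rose 2.88-fold and Erbb3 fell 1.34-fold. In the left ventricle Erbb2 rose 1.25-fold. The other members did not pass on either side. Tests are edgeR's quasi-likelihood test within litters, with Benjamini-Hochberg adjustment over all genes tested and a threshold of 0.05. By that rule 1 of 9 members was called in the left ventricle, where 12.8% of 15979 genes were called (6.17% higher and 6.61% lower). In the right ventricle 2 of 9 were called, where 6.61% of 16142 genes were (3.56% higher and 3.05% lower). The replicates are separate embryos, 1 HLHS embryo per litter.

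Nrg1, the endocardial ligand, had 7.07, 3.30 and 4.39 CPM in the HLHS right ventricles, from the earliest to the latest stage. The control right ventricles had 2.64 CPM at E13.5, then 1.87 and 0.974 at E14.5, then 0.744 and 1.56 at E17.5. All 3 HLHS libraries thus lay above all 5 controls. The log2 difference was 1.53 ± 0.26 (SE, 3 HLHS and 5 control libraries; edgeR adjusted p = 0.0123), higher in 3 of 3 litters. It no longer passed without either embryo of the E13.5 litter (1.57 in both fits, adjusted p in edgeR of 0.0609 and 0.0635) or without the E17.5 HLHS embryo (1.30, adjusted p = 0.0704), nor without the litter term (1.67, adjusted p = 0.335).

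In the left ventricle Nrg1 had 4.25, 2.97 and 0.739 CPM in HLHS, against 2.79 at E13.5, then 0.966 and 0.803 at E14.5, then 1.12 and 1.10 at E17.5 in controls. The HLHS library was above its littermates in the 2 earlier litters and below them at E17.5. The log2 difference of 0.73 ± 0.35 did not pass (adjusted p = 0.206 in edgeR). Without the E17.5 HLHS embryo it was 1.23, with an adjusted p in edgeR of 0.0199. The difference between the ventricles in the effect of HLHS on Nrg1, left minus right, was −0.78 ± 0.48 (adjusted p = 0.765 in edgeR, embryo as a block), so the 2 sides were not shown to differ.

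Nrg1 is a product of endocardial and other endothelial cells. Of 12 endothelial and endocardial markers, 0 were higher and 1 lower in the HLHS right ventricle in edgeR (median log2 change −0.03, against 0.01 over all genes), and their summed level was 1463 to 1780 CPM in HLHS against 1643 to 1820 CPM in controls. The summed level of 12 mesenchyme and fibroblast markers was 4107 to 5763 CPM in the HLHS right ventricles and 2473 to 4919 CPM in controls, with a median log2 change of 0.35. None of the 12 was called in edgeR, while 9 had an unadjusted p under 0.05 and DESeq2 called 6. All 12 were present in every library, the lowest being Twist1 at 4.21 to 17.47 CPM. The part of endothelial or mesenchyme content in the Nrg1 difference was not tested.

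The other ligand genes did not pass on either side. Nrg2, with 0.233 to 0.977 CPM over all libraries, had log2 differences of −0.21 ± 0.45 (left) and −0.31 ± 0.36 (right), which its few reads leave wide. Nrg4 had −0.26 ± 0.22 and 0.11 ± 0.16. Hbegf, the HB-EGF gene, had 0.06 ± 0.10 in the left ventricle. In the right it had 21.2, 19.3 and 24.4 CPM in HLHS against 21.6, 24.2, 21.6, 28.7 and 28.3 CPM in controls, a log2 difference of −0.18 ± 0.08 (adjusted p = 0.206 in edgeR). Each HLHS right ventricle was below its littermates for Hbegf, but the gap at E13.5 was only −0.03 on the log2 scale.

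Erbb2, the partner receptor, had 268, 214 and 166 CPM in the HLHS left ventricles, from the earliest to the latest stage. Left ventricles of controls had 234 CPM at E13.5, then 178 and 159 at E14.5, then 116 and 136 at E17.5. The groups overlap when stages are mixed, while within each litter the HLHS library was the highest. The log2 difference was 0.32 ± 0.07 (adjusted p = 0.0155 in edgeR, higher in 3 of 3 litters). By litter it was 0.20, 0.34 and 0.40 on the log2 scale, against gaps between the control littermates of 0.17 at E14.5 and 0.23 at E17.5. Leaving out the E14.5 HLHS embryo gave 0.31 with an adjusted p of 0.0799 in edgeR. In the right ventricle the difference was 0.01 ± 0.07, with 209.5, 149 and 122 CPM in HLHS and 219.5, 164, 156, 100.4 and 116 CPM in controls. The effect in the left minus that in the right was 0.30 ± 0.08 for Erbb2. Its unadjusted p of 0.00259 was the only 1 of the 9 members under 0.05 in that test, and its adjusted p over 16508 genes was 0.215 in edgeR, so a difference between the sides did not pass. In that test 0 of 9 members were called in edgeR and 0 in DESeq2, where 0.0182% of all genes were called in edgeR.

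Erbb3, the neuregulin receptor with little kinase activity, had 20.4, 18.8 and 16.99 CPM in the HLHS right ventricles. The control right ventricles had 24.04, 25.7, 22.2, 24.5 and 27.4 CPM. Every HLHS value was below every control value, and the gap to littermates was −0.24, then −0.34, then −0.61 from the earliest litter to the latest (log2 CPM). The log2 difference was −0.42 ± 0.10 (adjusted p = 0.0365 in edgeR, lower in 3 of 3 litters). The call was lost in 7 of the 8 fits that leave out 1 embryo, with log2 differences of −0.48 to −0.30 over all 8. The fit that kept it leaves out control replicate 2, and the largest adjusted p of the other 7, 0.194, came without HLHS replicate 3, the E17.5 embryo. Removing either E13.5 embryo leaves that litter without an HLHS and control pair. Those fits are therefore nearly the same check, here and in every count of 8 fits given below. In the left ventricle Erbb3 had 17.4, 15.7 and 17.9 CPM in HLHS and 18.7, 18.8, 17.3, 23.7 and 26.8 CPM in controls. That difference of −0.28 ± 0.10 did not pass (adjusted p = 0.0921 in edgeR), although HLHS was lower in 3 of 3 litters. Left minus right was 0.11 ± 0.13 (adjusted p = 0.935 in edgeR).

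Erbb3 is also active in glia and neural crest cells, whose markers were low. Of 9 such markers, 5 passed the filter in the right ventricle and 1, Fabp7, was lower in HLHS (−0.55 ± 0.14, adjusted p = 0.0462 in edgeR). The defining markers Foxd3 and Gfra3 were at 0 in some libraries and at most 0.587 CPM in any. Sox10 was also at 0 in some libraries and reached 1.99 CPM. The part of these cells in the Erbb3 difference was not tested.

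Erbb4, the main neuregulin receptor of heart muscle, had log2 differences of −0.08 ± 0.08 in the left and −0.01 ± 0.11 in the right ventricle. Its levels were 38.3 to 41.5 CPM in HLHS and 32.8 to 47.5 CPM in control left ventricles, and 45.4 to 55.7 and 33.9 to 69.4 CPM on the right. Neither group stood apart. Egfr had 10.6, 9.02 and 11.8 CPM in the HLHS right ventricles and 3.22, 8.78, 6.54, 7.44 and 7.75 CPM in controls. The 3 HLHS values lay above all 5 control values, but the lead over the highest control was small and the test did not pass in edgeR (0.72 ± 0.21, adjusted p = 0.0742). It passed in DESeq2 (0.74, adjusted p = 0.00955), without a count filter (0.73, adjusted p = 0.00634 in edgeR) and without control replicate 2 (0.83, adjusted p = 0.0234 in edgeR). In the left ventricle Egfr had a log2 difference of 0.26 ± 0.12 (adjusted p = 0.177 in edgeR).

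Errfi1, the feedback inhibitor, had −0.07 ± 0.10 in the left and −0.21 ± 0.09 in the right ventricle (adjusted p = 0.705 and 0.195 in edgeR). In the right it was lower in 3 of 3 litters, by 0.04 to 0.27 on the log2 scale.

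**Figure D3:**
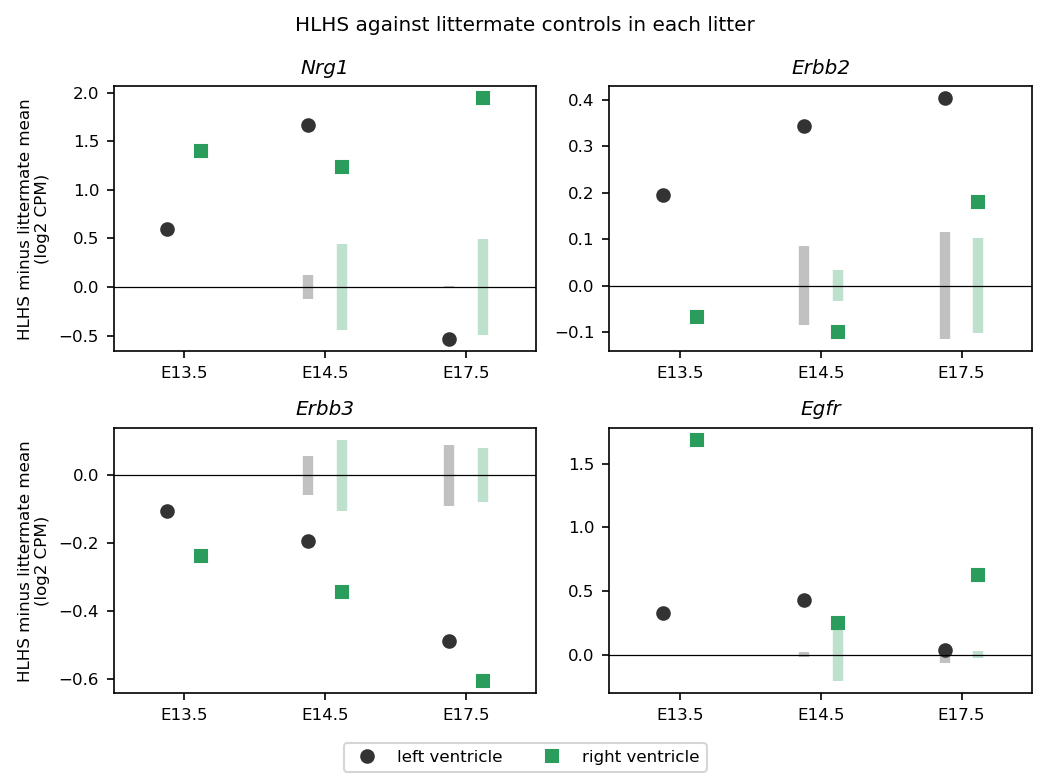
HLHS minus the mean of littermate controls (log2 CPM) for Nrg1, Erbb2, Erbb3 and Egfr in each litter, left ventricle as circles and right as squares; bars around 0 span the gap between the 2 control littermates (none at E13.5, with 1 control). Nrg1 in the right ventricle is above 0 in every litter, Erbb2 is above 0 in the left in every litter, and Erbb3 is below 0 on both sides.

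Other genes of the pathway were counted in lists of further ligands, ligand-releasing proteases, transducers, inhibitors and response genes, 62 genes in all. The lists were chosen with earlier results of these data known, so their shares are a description and no test of the pathway. In the HLHS right ventricle 8 of 58 tested rose and 1 fell, 15.5% called against 6.61% of all genes. In the left 7 of 57 rose and 1 fell, 14.0% against 12.8%. The median log2 change of the tested pathway genes was 0.12 on the right and 0.05 on the left, against 0.01 over all genes on both sides.

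Of the 8 pathway genes that rose in the right ventricle, 6 were targets or feedback inhibitors of the MAP kinase ERK, a kinase downstream of ERBB, fibroblast growth factor and other receptors. Of 10 response genes tested, 4 rose and 0 fell (median log2 change 0.47): the ETS transcription factor genes Etv5 (0.76 ± 0.10), Etv4 (0.74 ± 0.11) and Etv1 (0.54 ± 0.12), and the MAP kinase phosphatase gene Dusp4 (0.52 ± 0.11). Of 14 inhibitors, 2 rose and 0 fell, the ERK phosphatase gene Dusp6 (0.40 ± 0.07) and Spred1 (0.43 ± 0.08), which restrains RAS signalling. The adjusted p of these 6 genes ran from 0.00676 (Etv5) to 0.0286 (Etv1) in edgeR. Each was higher in 3 of 3 litters, and for all but Spred1 the HLHS values lay above all 5 control values. Since these 6 genes were named for passing on the same libraries, that agreement is no separate support. The share of all genes with such a separation was not computed. The other 6 response genes and 12 inhibitors were not called. In these right ventricles 3.56% of all genes rose and 3.05% fell. In the same libraries the summed mesenchyme and fibroblast markers were above the littermates by 0.73, 0.15 and 0.28 on the log2 scale, from the earliest litter to the latest, and the summed macrophage markers by 0.22, 0.48 and 0.30 (2 of 8 called). Of 12 heart muscle markers 2 fell in edgeR, DESeq2 called 9, and their median log2 change was −0.27. The part of these cells in the response gene differences was not tested.

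Etv5 had 62.2, 47.4 and 42.7 CPM in the HLHS right ventricles, against 31.4, 35.3, 31.9, 21.02 and 26.0 CPM in controls. Dusp6 had 57.3, 58.5 and 71.8 CPM in HLHS, against 44.0, 46.4, 49.1, 49.0 and 50.6 CPM in controls. Both genes thus kept a gap between the groups across stages. Etv4 and Etv5 passed in all 8 fits that leave out 1 embryo, whereas Dusp6 passed in 5, Dusp4 and Spred1 in 3 and Etv1 in 2. In the left ventricle Etv4 alone of the response genes rose (0.76 ± 0.16, adjusted p = 0.0168 in edgeR, and 0.40 to 0.97 with 1 embryo left out, not passing without HLHS replicate 2). Dusp6 had −0.20 ± 0.07 there (adjusted p = 0.102), with every HLHS left ventricle at 41.8 to 43.3 CPM and every control at 45.2 to 52.9 CPM. The effect of HLHS on Dusp6 in the left minus the right was −0.59 ± 0.10, which missed the threshold at an adjusted p of 0.0596 in edgeR. For Etv1, Etv5 and Dusp4 that difference was −0.51 ± 0.19, −0.47 ± 0.16 and −0.42 ± 0.20 (adjusted p = 0.448, 0.392 and 0.632).

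**Figure D4:**
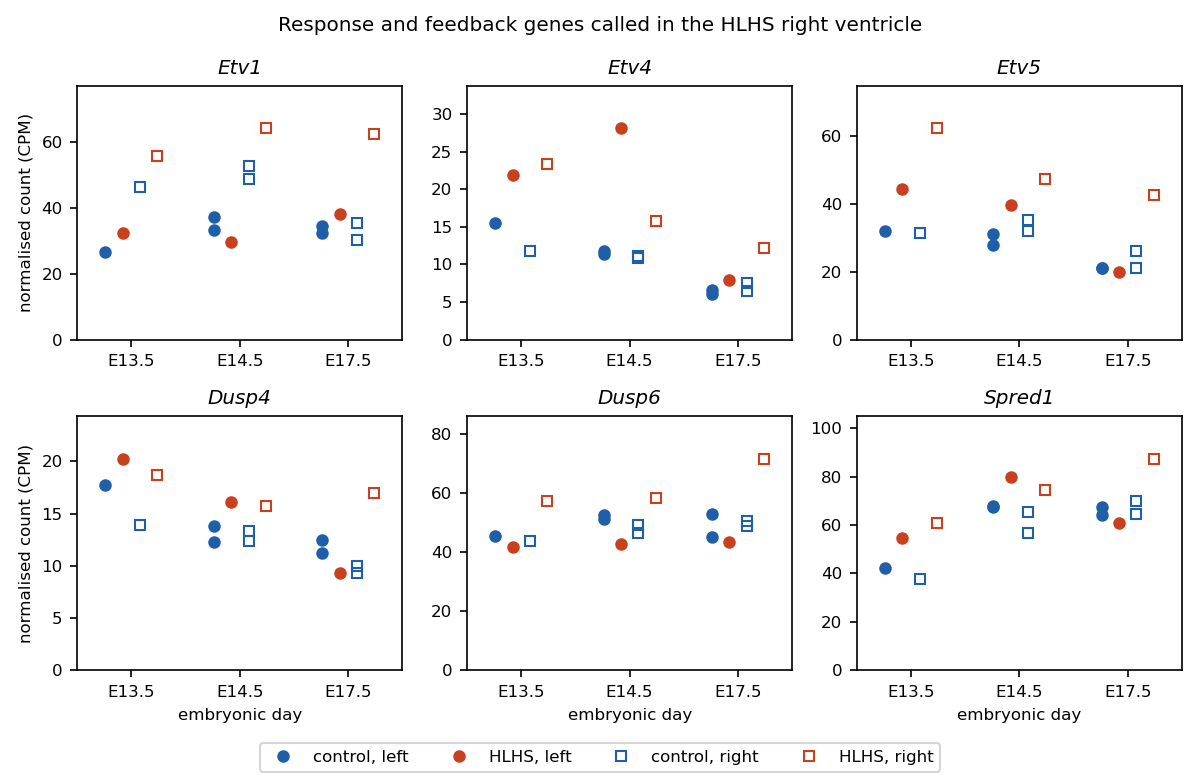
Normalised count (CPM, linear axis from 0) of 6 ERK response and feedback genes in every library by embryonic day; colour gives the phenotype, filled circles the left and open squares the right ventricle. The 6 genes are shown because they were called in the HLHS right ventricle. It is above the mean of its littermates at every stage for each of them.

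Among the proteases that release ERBB ligands from the cell surface, 3 of 10 rose in the HLHS left ventricle, where 6.17% of all genes rose, and 2 of 10 in the right, where 3.56% did. None fell in edgeR on either side. Adam9 rose by 0.67 ± 0.09 on the left (adjusted p = 0.00260), with 186 to 234 CPM in HLHS and 124 to 148 CPM in controls, groups that did not overlap. Adam10 rose by 0.24 ± 0.06 on the left and 0.35 ± 0.07 on the right, and Adam19 by 0.19 ± 0.05 and 0.41 ± 0.08. Of these, Adam9 on the left passed in all 8 fits with 1 embryo removed, while Adam10 passed in 3 on each side and Adam19 in 2 on the left and 5 on the right. The main neuregulin and HB-EGF sheddase gene, Adam17, was not called on either side.

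Of 7 further ligand genes, Nrg3, Areg, Ereg and Epgn had at most 28 reads in a library. Tgfa, which encodes the EGFR ligand TGF-alpha, rose in the HLHS left ventricle by 0.63 ± 0.18 (adjusted p = 0.0487 in edgeR), with 19.0, 20.2 and 8.52 CPM against 12.9, 9.26, 8.76, 7.68 and 8.84 CPM in controls. The HLHS library was above its littermates in the 2 earlier litters and between them at E17.5. The call passed in 2 of the 8 fits that leave out 1 embryo and not with DESeq2 size factors. Egf fell in the right ventricle by 0.64 ± 0.16 (adjusted p = 0.0403), at 3.805, 4.65 and 4.36 CPM in HLHS and 5.28 to 8.90 CPM in controls, and passed in 2 of those 8 fits. Of 20 transducers, Map2k1 rose (0.31 ± 0.08) and Stat5b fell (−0.25 ± 0.06) on the left, passing in 2 and 5 of those 8 fits. On the right 0 were called in edgeR and 0 in DESeq2, with 5 at an unadjusted p under 0.05. Over all alternatives Map2k1 ranged from 0.18 to 0.46. The inhibitor gene Cblb rose on the left (0.30 ± 0.08), but passed in 1 of the 8 fits without 1 embryo.

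Trabeculation genes, on which neuregulin signalling is known to act or which act beside it, moved in both directions. Of 19, 2 rose and 4 fell in the HLHS left ventricle, where 6.17% of all genes rose and 6.61% fell. In the right 3 rose and 2 fell, where 3.56% and 3.05% did. Dll4, a Notch ligand gene of endocardium and vessels, fell by 0.52 ± 0.08 on the left and by 0.64 ± 0.09 on the right, and passed in all 8 fits that leave out 1 embryo on both sides. Of 12 endothelial and endocardial markers, 1 rose and 4 fell on the left (median log2 change −0.23), and 0 rose and 1 fell on the right (−0.03). The part of these cells in the Dll4 differences was not tested. Vcan, which encodes the cardiac jelly proteoglycan versican, rose by 0.52 ± 0.08 on the left, in all 8 such fits, and by 0.76 ± 0.13 on the right, where it did not pass without control replicate 1, HLHS replicate 1 or HLHS replicate 3. Nppa, of the same list, rose by 0.57 ± 0.09 on the left, higher in 3 of 3 litters and passing in all 8 such fits. On the right it had 0.48 ± 0.16 (adjusted p = 0.108 in edgeR). Bmp10, a growth factor gene of trabecular muscle named here after its values were seen, had the largest fall of the list on the left (−1.54 ± 0.31, adjusted p = 0.0133 in edgeR). It was not read out in the fits that leave out 1 embryo. Its left ventricles had 40.6, 7.02 and 8.55 CPM in HLHS and 33.2 to 48.9 CPM in controls, so the HLHS library of the earliest litter lay within the control range. On the right Bmp10 had 0.47 ± 0.17 (adjusted p = 0.141), and left minus right was −1.97 ± 0.40 (adjusted p = 0.115 in edgeR). The median log2 change of the list was −0.05 on the left and 0.02 on the right.

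Left and right ventricles were compared within embryos to ask which members differ between the sides of the heart. In controls Hbegf was the only member called. It had 18.3, 19.4, 17.8, 20.5 and 20.4 CPM on the left and 21.6, 24.2, 21.6, 28.7 and 28.3 CPM on the right, so that every left library lay below every right one. The log2 difference, left minus right, was −0.36 ± 0.06 (adjusted p = 0.00748 in edgeR, lower on the left in 5 of 5 embryos), and it passed in all 5 fits that leave out 1 embryo. Of all 16238 genes 6.1% were called, 2.09% higher and 4.01% lower on the left. Egf, the related EGFR ligand gene, was also lower on the left (−0.93 ± 0.11, adjusted p = 0.0013).

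Erbb4 and Erbb3 were lower on the left in 5 of 5 control embryos without passing in edgeR (−0.27 ± 0.07, adjusted p = 0.0615, and −0.25 ± 0.08, adjusted p = 0.0864). For Erbb4, DESeq2 gave −0.26 with an adjusted p of 0.0453. Erbb2 was higher on the left in 5 of 5 controls, by 0.13 ± 0.05 (adjusted p = 0.142 in edgeR).

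In HLHS hearts Erbb2 was the only member called between the sides, where 4.04% of 15771 genes were called (1.15% higher and 2.89% lower on the left). The left ventricles had 268, 214 and 166 CPM and the right ones of the same embryos 209.5, 149 and 122 CPM. The log2 difference was 0.46 ± 0.09 (adjusted p = 0.0230 in edgeR, higher on the left in 3 of 3 embryos), and without HLHS replicate 2 it was 0.41 with an adjusted p of 0.119. Hbegf had −0.08 ± 0.14 in HLHS hearts. Whether the side difference in HLHS differs from that in controls is the left minus right test given above, written from the other direction. It gave 0.26 ± 0.14 for Hbegf (adjusted p = 0.683 in edgeR), so the side differences of Hbegf were not shown to differ. Erbb4 and Egfr were lower on the left in 3 of 3 HLHS embryos (−0.32 ± 0.08 and −0.51 ± 0.16) without passing (adjusted p = 0.0804 and 0.129 in edgeR). Nrg1 had −0.999 ± 0.38 (adjusted p = 0.227), lower on the left in 3 of 3 embryos. Among response and inhibitor genes, Etv1 (−0.85 ± 0.10), Phlda1 (−0.80 ± 0.16) and Dusp6 (−0.53 ± 0.09) were lower on the left in HLHS hearts. They were the only 3 called of 57 pathway genes tested, 5.26% against 4.04% of all genes. None was called higher there, where 1.15% of all genes were. The mesenchyme and fibroblast markers were also lower on the left, 8 of 12 called in HLHS hearts and 5 of 12 in controls, and their part in these differences was not tested.

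**Figure D5:**
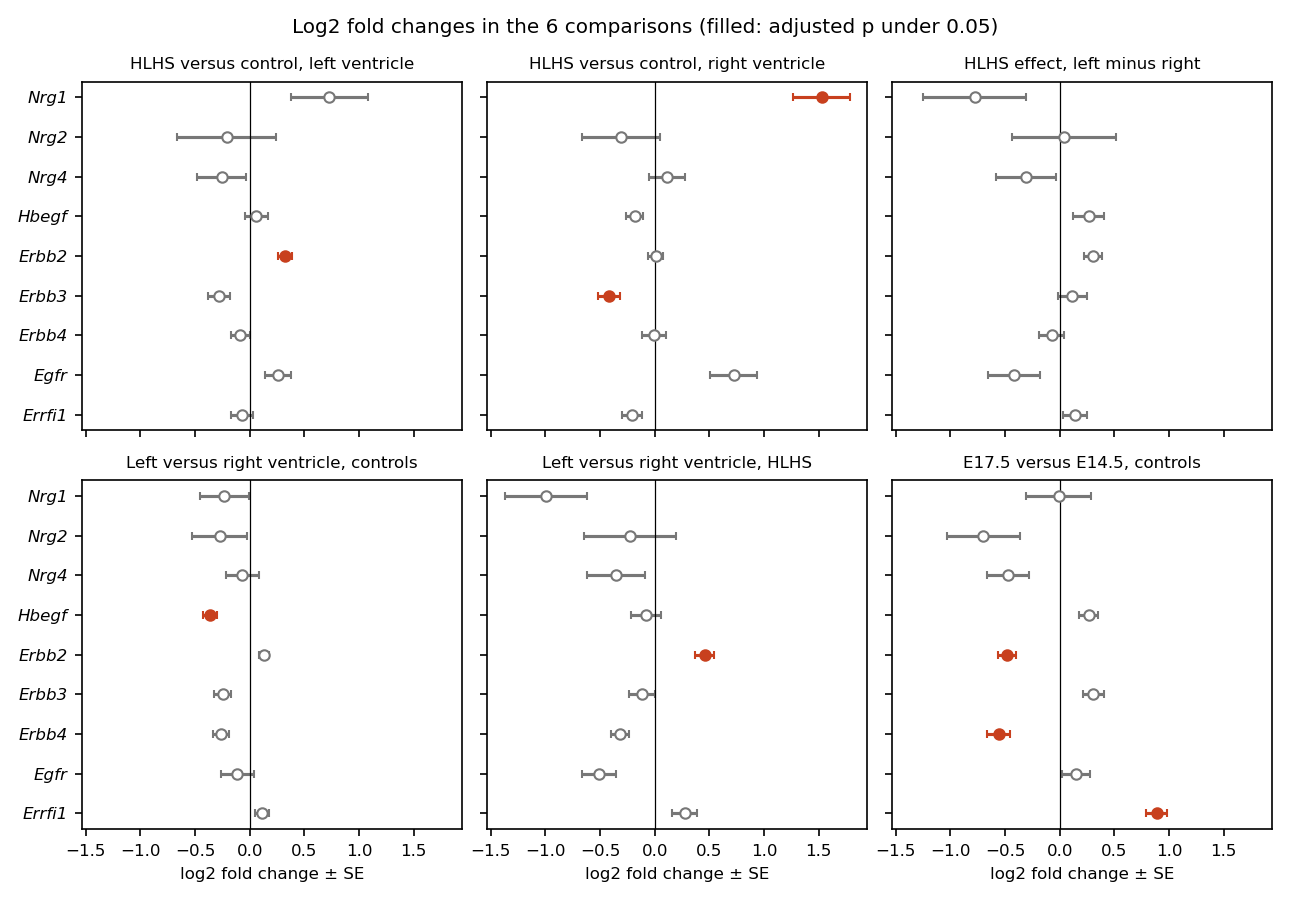
Log2 fold change ± SE of the 9 genes in each of the 6 comparisons; filled red points have an adjusted p under 0.05. The called genes are Erbb2 in the left ventricle, Nrg1 and Erbb3 in the right, Hbegf and Erbb2 between sides, and Erbb2, Erbb4 and Errfi1 between stages.

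Between E14.5 and E17.5 in controls, Erbb2 and Erbb4 fell and Errfi1 rose, with the counts of an embryo's ventricles added together (2 embryos at each stage). Of the 9 members, 3 were called, where 28.2% of 17790 genes were (15.1% higher and 13% lower at E17.5). Since each stage is 1 litter, a litter effect cannot be told apart from stage.

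Erbb2 had 178 and 159 CPM in the left ventricles at E14.5 and 116 and 136 at E17.5, and 164 and 156 against 100.4 and 116 CPM in the right. The log2 difference was −0.48 ± 0.08 (adjusted p = 0.00616 in edgeR). The E13.5 control had higher levels than either stage, at 234 CPM on the left and 219.5 on the right. Erbb4 had 47.5 and 44.8 CPM on the left at E14.5 and 32.8 and 39.3 at E17.5, and 69.4 and 59.2 against 33.9 and 41.8 CPM on the right. Its log2 difference was −0.56 ± 0.11 (adjusted p = 0.00991). In the left ventricles alone it was −0.36 and in the right alone −0.76, and both passed. The E13.5 control, at 47.4 CPM on the left and 55.0 on the right, was not above the E14.5 controls for Erbb4.

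Errfi1 had 16.8 and 20.5 CPM in the left ventricles at E14.5 and 35.8 and 35.0 at E17.5, with 17.9 and 18.2 against 34.3 and 29.8 CPM on the right. The groups did not overlap on either side. The log2 difference was 0.89 ± 0.10, a 1.85-fold rise (adjusted p = 0.00139 in edgeR). All 3 calls held in every alternative fit run, including each ventricle alone and each embryo left out. Erbb3 (0.31 ± 0.10, adjusted p = 0.0527) and Hbegf (0.26 ± 0.09, adjusted p = 0.0574) were just short of the threshold in edgeR, and Erbb3 passed in the left ventricles alone (0.49, adjusted p = 0.00631). Nrg4 (−0.47 ± 0.19), Nrg2 (−0.70 ± 0.34), Egfr (0.15 ± 0.13) and Nrg1 (−0.01 ± 0.30) did not pass. In the HLHS hearts, with 1 embryo a stage and no test, Errfi1 likewise had its highest level at E17.5 (29.4 CPM left, 26.5 right, against 14.6 to 20.3 CPM earlier), and Erbb2 went from 268 to 166 CPM on the left and from 209.5 to 122 CPM on the right between E13.5 and E17.5.

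Pathway genes changed with stage in about the share of all genes, 14 rising and 5 falling of 59 tested (32.2% called against 28.2%). Inhibitor genes that rose were Spry4 (0.70 ± 0.08), Spry1 (0.61 ± 0.09) and Socs5 (0.46 ± 0.08), 3 of 14, and 0 fell in edgeR. Response genes moved apart, 4 rising and 3 falling of 10. The early response gene Ier3 (0.81 ± 0.08), the cyclin D1 gene Ccnd1 (0.47 ± 0.06) and Phlda1 (0.76 ± 0.11) rose. The 3 that fell, named after their values were seen, were Etv4 (−0.74 ± 0.11), Etv5 (−0.48 ± 0.09) and Etv1 (−0.35 ± 0.08), the ETS genes that rose in the HLHS right ventricle. Among transducers Pik3r1 (0.57 ± 0.07) and Ptpn11 (0.42 ± 0.07) rose and Src fell by 0.76 ± 0.10. Of 12 immediate early genes, which respond to stimuli and to tissue handling, 5 rose and 1 fell between the stages, and their part in the Errfi1 and Ier3 changes was not tested. Of 12 heart muscle markers, 8 rose and 0 fell in edgeR between the stages.

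Over the 16 libraries, the genes most like Erbb2 in log2 CPM were the mitosis and cell cycle genes Ncapd2 (Pearson r 0.979), E2f8 (0.967) and Kif18b (0.965). Those most like Errfi1 were Rcan2 (0.966), Tex261 (0.962) and the complement gene C3 (0.961). Nrg1 was most like Colgalt1 (0.917), Bcr (0.913) and Uggt1 (0.912), Erbb3 like Gpr157 (0.898) and Rcsd1 (0.881), and Erbb4 like Ankrd6 (0.909), Csad (0.902) and Zfp521 (0.891). Hbegf had the weakest best matches, Nmrk2 (0.789), Myl1 (0.768) and its fellow EGFR ligand Egf (0.760). These r are the highest of 11160 or 11161 genes and describe libraries that share stages, embryos and normalisation, so they carry no test.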

How the data were processed

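Samples were grouped by phenotype, side, stage and embryo from the labels; both ventricles of an embryo are paired by its label. The deposited table holds unnormalised gene counts. TopHat2 2.0.9, Picard, HTSeq 0.5.4p5, edgeR 3.4.2 and the build mm9 are named per the submitters' processing notes. Annotation, strand setting and any removal of duplicates are not stated there. RefSeq and GENCODE M21 are of GRCm38, another build, and served for names, exon lengths and printed positions.

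The tests used edgeR 4.0.16 under R 4.3.3: genes were kept by filterByExpr (at least 10 reads, total 15), scaled by TMM and fitted with glmQLFit and glmQLFTest at a threshold of 0.05, with litter (HLHS against control) or embryo (side) as a term, and with 3 stages as a factor on summed ventricles. SEs are the log2 change divided by the root of the F statistic. CPM use TMM library sizes over 16 libraries, and log2 CPM a prior count of 2. DESeq2 1.42.0 was an alternative. The fits were also run on simulated counts with the same spread for all genes and no litter or embryo effect, which cannot check the litter term. The 9 members and all lists were chosen with earlier results of these data known. Named genes are the 9 members, up to 3 called genes of each pathway list with the smallest p, and the 3 genes most like a member; some genes that these rules or lists hold are not reported here. Etv1, Bmp10, Etv4 and Etv5 between stages, Gm26578, Mien1, Fbxo22, Adam17 and the low ligands were named after their values were seen. Hbb-b1 of the erythroid marker list had no match in the symbol table, and that list, the epicardial, smooth muscle, macrophage and atrial lists are given in the closing section.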

Additional observations from a re-analysis of the deposited data

Results flagged for a closer look

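Nrg1 in the control left ventricle at E13.5 (replicate 1) was at 2.79 CPM, far from the other 4 control left ventricles, which ran from 0.803 to 1.12 CPM. Its gap to the next library was 0.84 of the whole range, above the critical value of 0.710 for 5 libraries. It was the only 1 of 18 such groups checked, and chance marks about 1 in 20. It is also the only control left ventricle of its stage, and the control right ventricle of the same embryo, at 2.64 CPM, was likewise the highest of its group.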

How the results depend on the processing

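Over the alternatives run, the 3 calls between stages and that of Hbegf between control sides held in each. The largest dependence was on the litter: without the replicate block, 1 gene passed in edgeR in the left ventricle and 0 in the right (1314 and 1321 at an unadjusted p under 0.05), with 0 members on each side (0 and 3 unadjusted), and 9 genes in the test of left minus right. The block was not separable in HLHS sides, where litter and embryo are the same, and moved no count between control sides by over 1.5 times. Without a count filter 1720 genes passed in the right ventricle, 217 in left minus right, 1570 between control sides (2 members) and 1309 between HLHS sides (3 members), and 5 members between stages. DESeq2 gave 132 genes in left minus right and 2 members between control sides. The right ventricles alone gave 2878 genes between stages. With 1 embryo left out, genes called ranged from 845 to 2309 (left), 195 to 1518 (right), 0 to 135 (left minus right), 486 to 883 (control sides), 270 to 1117 (HLHS sides) and 3829 to 5043 (stages), and members called from 0 to 2, 0 to 3, 0 to 0, 1 to 2, 0 to 1 and 3 to 5.

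Signs turned only for members that did not pass. With the filter of 1 CPM in 3 libraries Erbb2 in the right ventricle was -0.0038. Nrg1 between stages was 0.017 without a count filter and 0.33 in the left ventricles alone, and Egfr was -0.00034 in the right ventricles alone. With 1 embryo left out, log2 changes ran from -0.023 to 0.23 (Hbegf), -0.94 to 0.31 (Nrg2) and -0.18 to 0.061 (Errfi1) in the left ventricle, from -0.16 to 0.10 (Erbb4), -0.085 to 0.062 (Erbb2) and -0.68 to 0.13 (Nrg2) in the right, from -0.37 to 0.48 (Nrg2) in left minus right, from -0.26 to 0.028 (Egfr) and -0.14 to 0.00076 (Nrg4) between control sides, from -0.34 to 0.22 (Nrg2) and -0.21 to 0.12 (Hbegf) between HLHS sides, and from -0.32 to 0.37 (Nrg1) between stages. Depth limits Nrg2 most, at 6 to 24 reads per library.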

Other observations

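Markers of other cells were read in the same libraries, where 6.17% of all genes rose and 6.61% fell in the HLHS left ventricle and 3.56% rose and 3.05% fell in the right. Of 8 erythroid genes tested, 7 rose and 0 fell in the left in edgeR (median log2 change 0.90), with a summed level of 347 to 687 CPM against 209 to 425 CPM in controls, while 0 of 9 were called in the right (1 at an unadjusted p under 0.05, 1 in DESeq2). Of 6 smooth muscle genes, 2 rose and 2 fell in the left and 2 rose and 1 fell in the right. Of 8 epicardial genes 2 rose in the left and 1 in the right. Of 8 macrophage genes 2 rose in the right and 0 were called in the left in edgeR (1 unadjusted, 1 in DESeq2). Of 12 heart muscle markers 3 fell in the left. Of 12 mesenchyme and fibroblast markers 2 rose and 5 fell in the left in edgeR (median log2 change −0.28, 9 called in DESeq2). Of 12 endothelial and endocardial markers 1 rose and 4 fell there (−0.23, 7 called in DESeq2), at a summed 1197 to 1556 CPM against 1548 to 1702 CPM in controls. The part of these cells in the left ventricle differences was not tested. With lists this short, a count of 1 or 2 rests on few genes, and no share was tested. Of 6 atrial genes 1 fell in the left, Bmp10, which is also in the trabeculation list given above. Of 12 immediate early genes 2 rose in the left and 1 fell in the right.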
